A study of Mus musculus with 12 samples.

Results

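The 90 genes described here are mostly nuclear genes for subunits of the oxidative phosphorylation complexes. They include 7 complex I assembly factors that share the Nduf prefix, and Atp5s and Atp5sl, which are counted with complex V by their names and are called Dmac2l and Dmac2 in RefSeq. They were the rows of the deposited expression table whose symbol starts with Nduf, Uqcr or Atp5, starts with Cox4 to Cox8, or is Sdha, Sdhb, Sdhc, Sdhd or Cyc1. This rule found 93 of 24340 rows. Atp5g2, Cox7b2 and Cox8c were listed at 0 in all 12 libraries and were left out, which left 90 of the 18509 rows that were above 0 in at least 1 library. The members comprised 38 complex I rows, 7 Ndufaf assembly factors, 4 of complex II, 9 of complex III, 16 of complex IV and 16 of complex V. No mitochondrially encoded subunit was analysed here.

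The libraries came from both retinas of 6 mice aged 12 to 16 weeks. All 6 carried p16-3MR, a transgene in which the p16 regulatory region drives a luciferase, a red fluorescent protein and a viral thymidine kinase, so that ganciclovir (GCV) kills the cells expressing it. In each mouse 1 eye was kept for 60 min at an intraocular pressure (IOP) of 85 to 90 mm Hg, and its fellow eye was the control. Mice 1, 2 and 5 then received GCV at 25 mg/kg each day, mice 3, 4 and 6 received PBS as sham treatment, and the retinas were taken at day 3. This gave 4 groups of 3 libraries, in which every IOP retina had its control retina from the same animal.

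Oxidative phosphorylation couples the oxidation of NADH and succinate to the synthesis of ATP at the inner mitochondrial membrane. Complexes I, III and IV pump protons while electrons pass to oxygen, complex II feeds in electrons from succinate without pumping, and complex V lets the protons return to make ATP. The retina, and above all its photoreceptors and ganglion cells, is known for a high demand for ATP.

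The table holds FPKM (fragments per kilobase, per library depth), a scale corrected for transcript length. The depth behind it, estimated from the steps between low values, was about 3990000 assigned fragments in the IOP retina of mouse 6 and 6830000 to 9070000 in the other 11 libraries. Rod markers, the defining genes of the retina's main cell type, summed to 39520 to 72235 FPKM. Markers of other cells stood apart in several libraries. Skeletal muscle markers (8 of 8 with a row) summed to 2515 FPKM in the IOP retina of mouse 3 and to 246 in that of mouse 5, against 18.2 to 75.8 elsewhere. Much of the sum elsewhere was Pvalb, for example 44.2 of 49.8 FPKM in the control retina of mouse 4. Pvalb was high in the IOP retina of mouse 3 (552 FPKM) and not in that of mouse 5 (32.4 FPKM). Lens markers summed to 69.3 to 298 FPKM in 6 libraries and to 3830 to 8836 in the other 6, which included the control retina of mouse 1. In such bulk samples, fewer cells of a type and less RNA per cell cannot be told apart.

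The members were abundant in these retinas. Their summed level was 15422 ± 842 FPKM (SD, n = 3) in control retinas without GCV, 17409 ± 3566 in IOP-treated retinas without GCV, 15499 ± 703 in the controls of the GCV mice and 15927 ± 1252 in their IOP-treated retinas. The lowest library held 13390 FPKM and the highest 20195, or 3.39% to 4.44% of all FPKM. The lowest and the highest were both IOP retinas without GCV, those of mice 4 and 3, and the SD of that group was larger than any difference between group means. Of the 90 members, 88 had a mean of at least 1 FPKM and 84 of at least 10 FPKM.

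**Figure D1:**
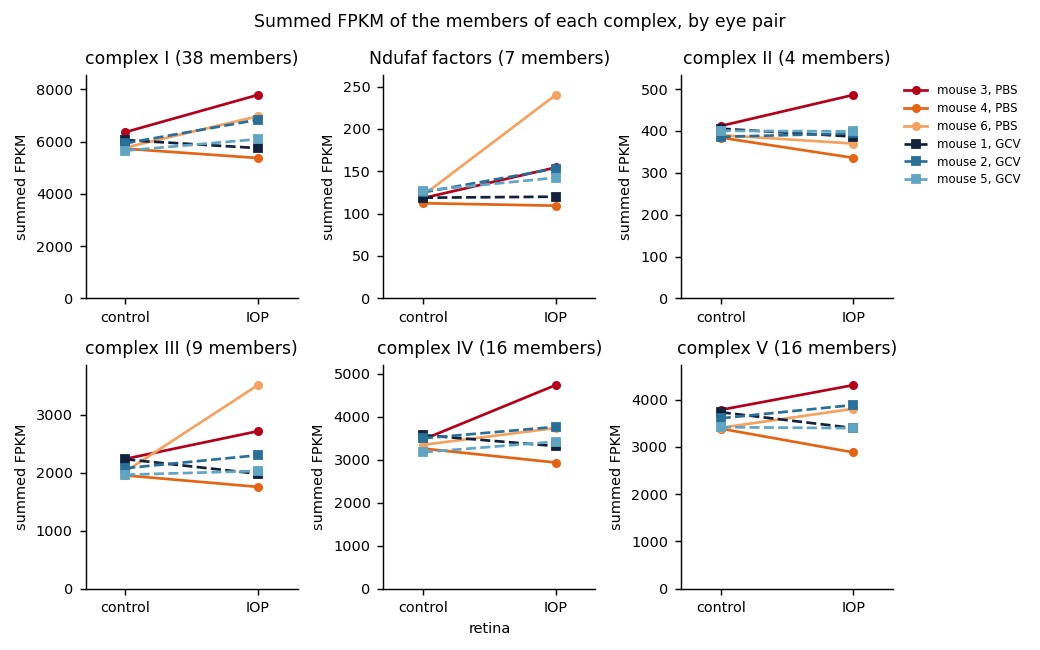
Summed FPKM (vertical axes, from 0) of the members of each complex in the control and the IOP retina of each mouse, with 1 line per mouse (solid, PBS; dashed, GCV). The line of mouse 3 goes up in all 6 panels and that of mouse 4 goes down in all 6.

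By complex, complex I summed to 5369 to 7784 FPKM over the 12 libraries, complex V to 2884 to 4311, complex IV to 2936 to 4741, complex III to 1756 to 3515, complex II to 335.8 to 486.3 and the Ndufaf factors to 109.4 to 240.2. The number of members behind these sums differs between complexes. The most abundant single members were Ndufa4 (mean of 956 FPKM), whose protein was first assigned to complex I and is now known as a complex IV subunit, the complex III hinge protein Uqcrh (844 FPKM), the catalytic ATP synthase beta subunit Atp5b (811 FPKM) and Cox4i1 (701 FPKM), the general form of complex IV subunit 4.

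Several members stood far below their partners in the same complex. Atp5g2, 1 of 3 genes for the c subunit of the ATP synthase ring, was listed at 0, whereas its partner genes Atp5g1 and Atp5g3 had means of 42.9 and 347 FPKM. Ndufs5 was listed at 0.00075 to 0.00086 FPKM in 11 libraries and at 5.12 FPKM in the IOP retina of mouse 5. Atp5l, the g subunit of complex V, ranged from 0 to 2.09 FPKM, at most about 5.32 fragments in a library. Cox7c, a small subunit of complex IV, ranged from 0.824 to 7.72 FPKM.

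Short transcripts with processed pseudogenes share sequence with other genes. Of the 50-base windows in the transcripts of Atp5l, 84.8% also occurred in other genes, and 12 of these 14 genes were pseudogenes. The share was 31.1% for Ndufs5, 27.9% for Cox7c and 14.8% for Atp5g2. High shares also occurred in members with high values, such as Atp5o (50.3%, mean of 136 FPKM) and Uqcrb (43.4%, mean of 272 FPKM). Of the 14 members with more than 25% shared windows, 6 had a mean below 30 FPKM, compared with 8 of the 44 members with none. How the reads of shared stretches were assigned is not given in the sources used here, and the values of these members are uncertain.

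The main question was whether the transcripts of the respiratory chain moved with IOP elevation, with and without removal of the p16-expressing cells. Over all 6 mice, 1 of the 90 members passed the test (limma on log2(FPKM + 1), Benjamini-Hochberg adjusted p under 0.05). This was 1.11% of the members, compared with 12.2% of all rows tested. At an unadjusted p under 0.05 there were 11 members, which is 12.2% of the members against 30.3% of all rows. Of these, 9 were higher and 2 lower in IOP-treated retinas, where 14.2% of all rows were higher and 16.1% lower. The median log2 fold change of the members was 0.0772, with 62 members above 0 and 28 below, and that of all rows was 0.00892. The 95% interval of the fold change lay within 2-fold for 81 members (90%) and within 1.5-fold for 62 (68.9%), against 84.1% and 63.1% of all rows. Without the IOP retinas of mice 3 and 5, in which muscle markers stood high, a choice made after seeing the data, the median was 0.00595, with 47 members above 0 and 43 below. This left 2 IOP retinas in each group. There were then 9 members with an unadjusted p under 0.05 (10%, against 23% of all rows), 3 higher and 6 lower, where 11.9% of all rows were higher and 11.1% lower.

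**Figure D2:**
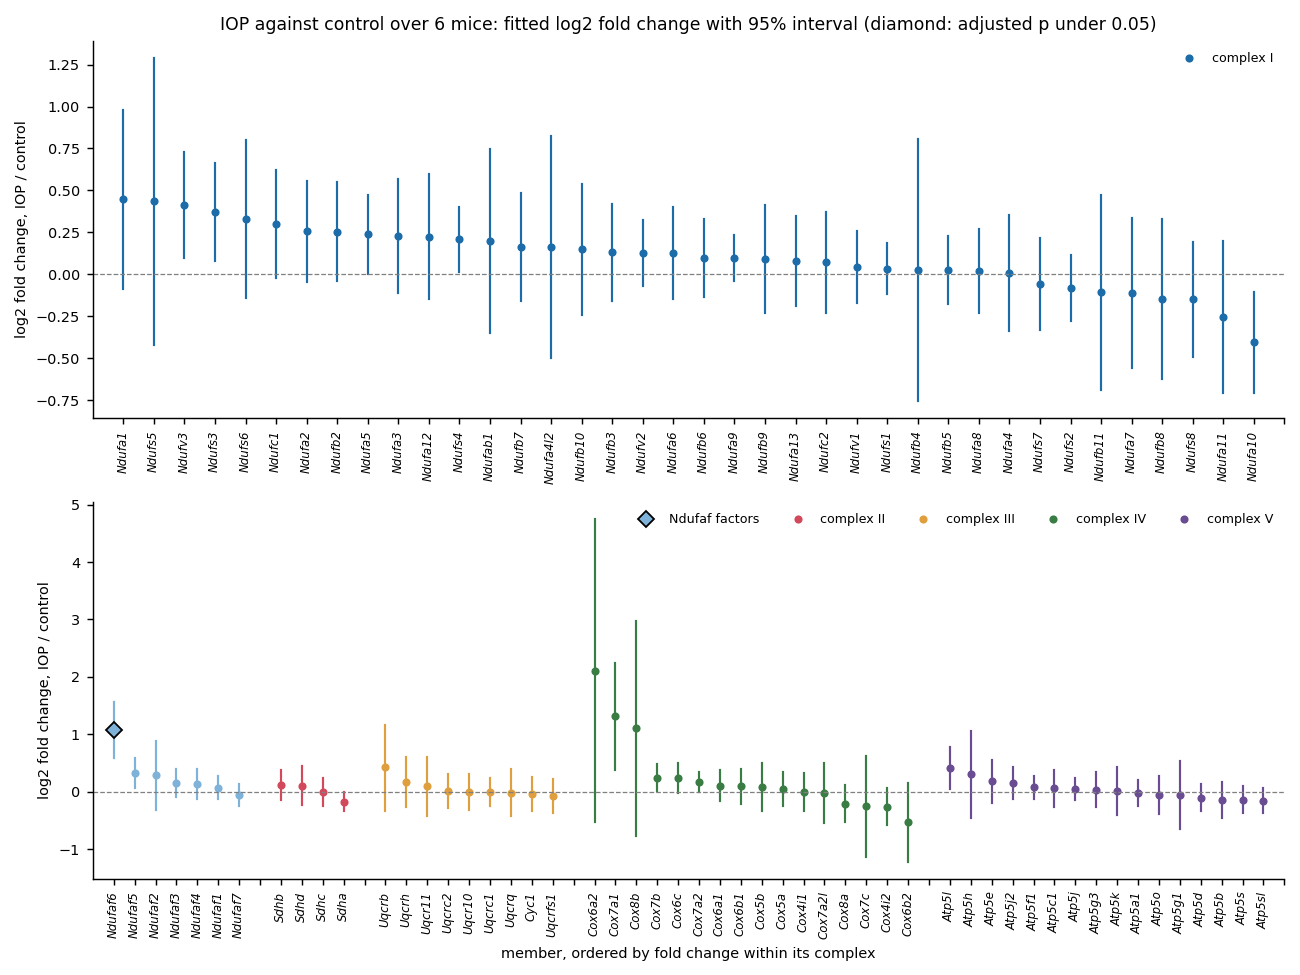
Fitted log2 fold change of IOP against control over 6 mice (points) with its 95% interval (lines) for each of the 90 members, ordered within its complex; the 2 panels have different vertical scales. The diamond is Ndufaf6 (1.08), the 1 member with an adjusted p under 0.05, and the widest intervals of complex IV belong to Cox6a2 and Cox8b.

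Without GCV, 0 of 90 members passed the test, compared with 1.65% of all rows, and 11 members had an unadjusted p under 0.05, which is 12.2% against 18.9%. Of these, 10 were higher and 1 lower, where 9.49% of all rows were higher and 9.42% lower. The median log2 fold change was 0.109. This lean rested on the IOP retina of mouse 3, without which the median was -0.0296, and with quantile normalization it was -0.0274. Without both libraries with muscle markers, the IOP group without GCV held only the retinas of mice 4 and 6. Then 22 members had an unadjusted p under 0.05 (24.4%, against 20.1% of all rows), 5 higher and 17 lower, where 11.4% of all rows were higher and 8.75% lower. With GCV, 0 members passed, compared with 1.8% of all rows, and 1 had an unadjusted p under 0.05, against 19.2% of all rows. The median there was 0.0515. The values of the 6 IOP retinas and the 6 control retinas overlapped for each of the 90 members, whereas they were apart for 7.9% of all rows. IOP was higher than control in all 6 mice for 5 members (Ndufaf5, Ndufaf6, Ndufc1, Ndufs3 and Cox7a1) and lower in all 6 for none, together 5.56% of the members against 20.8% of all rows.

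The response was not uniform between animals. The median member stood 0.271 higher in the IOP eye of mouse 3 on the log2 scale, with 82 of 90 members higher, and 0.176 lower in mouse 4 (median of -0.176), with 66 lower. The medians were 0.123 in mouse 6, -0.0448 in mouse 1, 0.131 in mouse 2 and 0.0532 in mouse 5, where 51, 38, 71 and 53 members were higher. Quantile normalization kept the signs of mice 3 (0.217), 4 (-0.121), 1 (-0.01) and 2 (0.0194) and turned those of mice 6 (-0.248) and 5 (-0.0624). Thus the direction of the median member in mice 5 and 6 depended on the scaling, and the opposite directions of mice 3 and 4, both without GCV, did not.

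**Figure D3:**
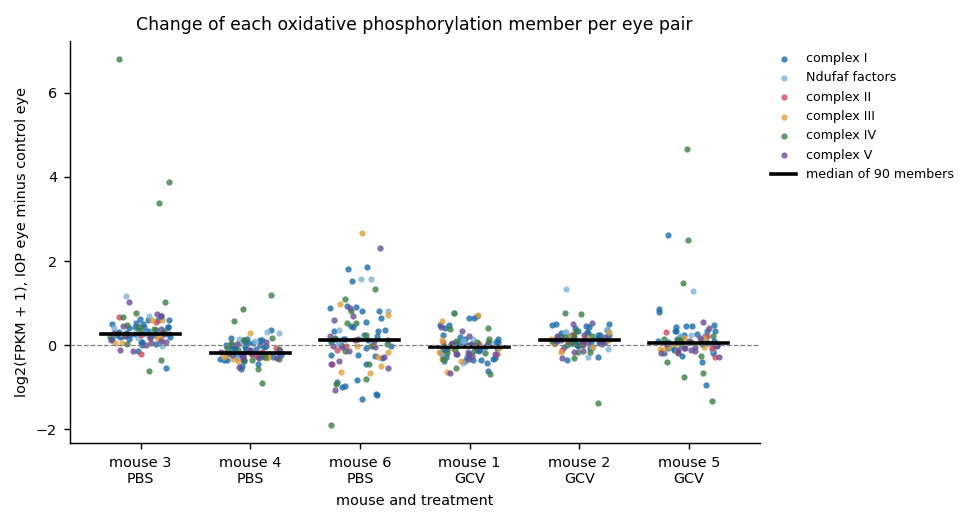
Difference in log2(FPKM + 1) between the IOP and the control eye (vertical axis) for each of the 90 members in each mouse, coloured by complex, with the median as a black bar. The bars of mouse 3 (0.271) and mouse 4 (-0.176) lie on opposite sides of 0, and the range between the quartiles is widest in mouse 6 (-0.276 to 0.544), while the highest single point, Cox6a2, is in mouse 3.

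All subunits of complex III stood higher in the IOP eye of mouse 3 (9 of 9), and 8 of 9 stood lower in that of mouse 4. For complex V these counts were 14 of 16 higher and 14 of 16 lower. Ribosomal protein genes, which serve translation and not respiration, were set beside them. The cytosolic set (59 genes) had medians of 0.307 in mouse 3 and -0.175 in mouse 4. The mitochondrial set (76 genes) had 0.224 in mouse 3 and -0.0116 in mouse 4, where 36 genes were higher and 40 lower. No test compared these sets with the members.

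The IOP library of mouse 4 bore on the counts. Without it, 11 members passed over 6 mice, where 24.5% of all rows passed (10.9% higher), and 11 passed without GCV, where 13.5% did (5.25% higher). All of these members were higher in IOP-treated retinas, and the 11 over 6 mice were Ndufaf6, Cox7a1, Ndufaf5, Ndufv3, Ndufa2, Ndufb2, Cox7b, Ndufs3, Atp5l, Ndufc1 and Ndufa1. The share of members was 12.2% in both cases, below the share of all rows in either direction and above the share of rows that were higher. Retinal ganglion cell markers in that library summed to 1075 FPKM, in the range of the controls (974 to 1982), while the other 5 IOP retinas had 243 to 788. Its microglia markers summed to 295 FPKM, above the controls (71.9 to 115) and within the range of the other IOP retinas (277 to 586). The part of these cells in the members' values was not tested.

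In complex I, 0 of 38 subunits passed, where 12.2% of all rows did, and the median log2 fold change over 6 mice was 0.111. Ndufv3, a small subunit of the NADH-oxidizing arm located at chr17:31520115-31531326, had 422, 351 and 355 FPKM in the control retinas of mice 3, 4 and 6 and 570, 397 and 672 FPKM in their IOP retinas. With GCV, its values were 386, 346 and 318 FPKM in the controls of mice 1, 2 and 5 and 385, 485 and 442 FPKM in their IOP retinas. Ndufv3 was higher in the IOP eye of 5 mice and level in mouse 1. The log2 fold change over 6 mice was 0.41 ± 0.143 (SE), which did not pass the test (limma adjusted p = 0.0804).

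Ndufa10, an accessory subunit of the complex I membrane arm on its matrix side (chr1:92439486-92473825), went the other way. It had 163, 146 and 155 FPKM in the controls of mice 3, 4 and 6 and 147, 98.7 and 86.4 FPKM in their IOP retinas. With GCV it had 177, 143 and 151 FPKM in the controls and 116, 154 and 115 FPKM in the IOP retinas of mice 1, 2 and 5. It was lower in 5 of 6 mice, with mouse 2 as the exception, and its log2 fold change over 6 mice was -0.41 ± 0.135 (limma adjusted p = 0.0729). Without the 2 libraries with muscle markers it was the 1 member that passed over 6 mice (-0.48, limma adjusted p = 0.0335), where 6.19% of all rows passed. It was then also the 1 member that passed without GCV, where 3.65% of all rows did. The IOP group without GCV then held only mice 4 and 6.

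Ndufa4, the most abundant member, had 809 to 1162 FPKM in the 12 libraries and a log2 fold change of 0.0078, with a 95% interval from -0.338 to 0.354. Ndufa1, a small membrane subunit and the complex I member with the largest fold change (0.45 ± 0.239, limma adjusted p = 0.243), stood at 746 FPKM in the IOP retina of mouse 6 and at 200 to 327 FPKM in the other 11, and its fold change without that library was 0.209. Ndufa4l2, a paralog of Ndufa4 that is known to be induced by hypoxia, was low among the members, at 0.363 to 3.59 FPKM, and differed by 0.16 ± 0.299 (limma adjusted p = 0.752).

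Ndufaf6, a factor needed to assemble complex I, was the 1 member that passed over 6 mice, and it was higher in IOP-treated retinas. Its gene lies at chr4:11048991-11076237 (mm10). It had 8.45, 6.11 and 5.38 FPKM in the control retinas of mice 3, 4 and 6 and 20.3, 7.86 and 18.1 FPKM in their IOP retinas. With GCV, it had 6.34, 5.4 and 6.84 FPKM in the controls of mice 1, 2 and 5 and 11.4, 15.2 and 18.1 FPKM in the IOP retinas. The GCV groups did not overlap, as was the case for 29.8% of all rows and 12.2% of the members. In the groups without GCV the IOP retina of mouse 4 lay below the control of mouse 3. These values correspond to about 38 to 146.4 fragments per library, and none of the 50-base windows of its transcripts occurred in another gene.

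The log2 fold change of Ndufaf6 was 1.08 ± 0.218 (SE) over 6 mice, with a 95% interval from 0.591 to 1.56 and a limma adjusted p of 0.0149, and it was higher in the IOP eye of 6 of 6 mice. With the mouse as a block the adjusted p was 0.0281. The response was 1.02 ± 0.309 without GCV and 1.13 ± 0.309 with GCV (limma adjusted p = 0.151 and 0.0999), and the difference of the 2 responses was 0.11 ± 0.437 (limma adjusted p = 0.999). It passed in 17 of the 18 alternatives. The exception was the fit without the IOP retinas of mice 3 and 5, in which muscle markers stood high, where the log2 fold change was 0.89 and the limma adjusted p 0.0565. The part of muscle RNA in this gene's values was not tested.

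**Figure D4:**
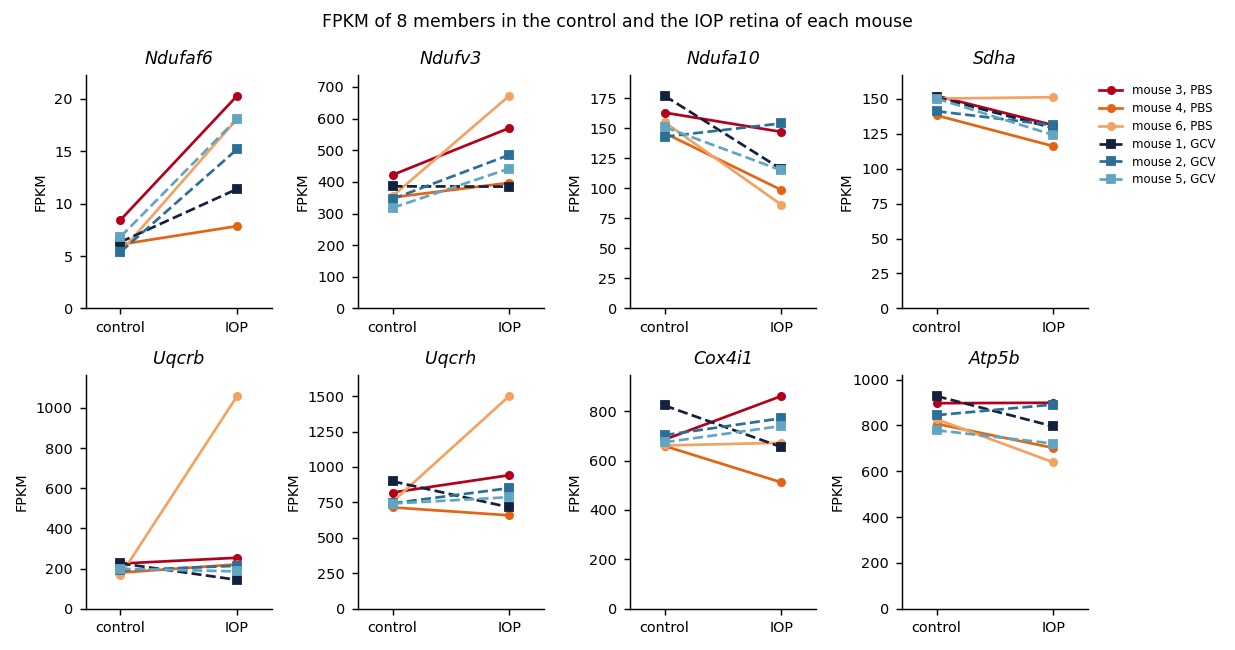
FPKM (vertical axes, from 0) of 8 members in the control and the IOP retina of each mouse, with 1 line per mouse (solid, PBS; dashed, GCV). All 6 lines go up for Ndufaf6, and the line of mouse 6 stands alone for Uqcrb (1059 FPKM) and Uqcrh (1500 FPKM).

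The other assembly factors did not pass. Ndufaf5 was higher in 6 of 6 mice, with controls of 9.49 to 12.2 FPKM and IOP retinas of 10.6 to 17.1 FPKM (0.32 ± 0.119, limma adjusted p = 0.0984). Ndufaf2 had 132 FPKM in the IOP retina of mouse 6 and 32.9 to 54 FPKM elsewhere, and Ndufaf3 had 25 to 38 FPKM. Ndufaf7, a methyltransferase that acts on the complex I core, had 8.32 to 11.5 FPKM and the lowest fold change of the group (-0.056 ± 0.0881). A list of 11 other complex I assembly genes, outside the Ndufaf names, had 9 rows with values, of which 0 passed over 6 mice, where 12.2% of all rows did. Their median log2 fold change was -0.0075, and the smallest limma adjusted p was 0.184 (Tmem126a).

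Complex II is the smallest of the complexes and also part of the citric acid cycle. Its flavoprotein Sdha, which oxidizes succinate (chr13:74322255-74350240), had 152, 138 and 150 FPKM in the controls of mice 3, 4 and 6 and 131, 116 and 151 FPKM in their IOP retinas. With GCV it had 151, 141 and 150 FPKM in the controls and 129, 131 and 124 FPKM in the IOP retinas of mice 1, 2 and 5. Sdha was lower in the IOP eye of 5 mice and level in mouse 6. The GCV groups did not overlap, which 29.8% of all rows shared. Its log2 fold change was -0.18 ± 0.0743, which did not pass (limma adjusted p = 0.14).

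The iron-sulfur subunit Sdhb ranged from 79 to 136 FPKM and the membrane anchors Sdhc and Sdhd from 84.1 to 139 and from 37.2 to 80.8 FPKM. Their log2 fold changes over 6 mice were 0.12 ± 0.12, -0.00098 ± 0.108 and 0.11 ± 0.152 (SE), and the limma adjusted p values lay between 0.557 and 0.997. In all 3, the highest value was the IOP retina of mouse 3. The summed level of complex II was 396 ± 14.7, 397 ± 78.9, 397 ± 10.1 and 393 ± 6.26 FPKM (SD, n = 3) in control, IOP, control with GCV and IOP with GCV, so the group means differed by less than the SD of any group.

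In complex III, 0 of 9 members passed, a number too small to set against the 12.2% of all rows, and the median log2 fold change over 6 mice was 0.0023. Uqcrb, a small subunit near the ubiquinone site, had 167 to 226 FPKM in the 6 controls and 254, 221 and 1059 FPKM in the IOP retinas of mice 3, 4 and 6. With GCV the IOP retinas of mice 1, 2 and 5 had 144, 214 and 186 FPKM. A single library thus set its fold change (0.42 ± 0.338, limma adjusted p = 0.444). Without it the fold change was 0.064. The Rieske iron-sulfur protein Uqcrfs1 had 45.8 to 87.7 FPKM and the lowest fold change of the complex (-0.077 ± 0.133), and Uqcrq had 218 to 529 FPKM. Cyc1, which carries electrons on to cytochrome c, had 78 to 117 FPKM.

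High single values in the IOP retina of mouse 6 were not limited to Uqcrb. They included Uqcrh (1500 against 659 to 942 FPKM elsewhere), Ndufs6 (300 against 95.2 to 152), Cox7a2l (455 against 164 to 248) and Atp5h (273 against 51.3 to 83.2). The same library had the lowest value of Ndufb11 (74.1 against 137 to 253), Ndufb8 (163 against 278 to 481) and Atp5g1 (19.2 against 35.4 to 72.8). This library had the lowest depth, and the part of depth was not tested.

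Complex IV has subunits with a general and a muscle-type or otherwise restricted form. The general forms were abundant. Cox4i1 had 512 to 861 FPKM and differed by -0.012 ± 0.15, and Cox6b1 had 451 to 748 FPKM and differed by 0.098 ± 0.136 (limma adjusted p = 0.97 and 0.668). Cox4i2, the form known from lung and from hypoxia, had 40.7 to 50.4 FPKM in the controls and 31.3 to 45.4 FPKM in the IOP retinas without GCV. With GCV, it had 47 to 52.2 FPKM in the controls and 45.9, 53.7 and 29.5 FPKM in the IOP retinas of mice 1, 2 and 5. Its fold change over 6 mice was -0.26 ± 0.144 (limma adjusted p = 0.253), and it was -0.141 without the IOP retina of mouse 5 and -0.0695 without both libraries with muscle markers. Cox6b2, known as the testis form, had 4.83 to 20.8 FPKM (-0.53 ± 0.308, limma adjusted p = 0.279). Cox7b2 and Cox8c, which are also known from testis, were listed at 0.

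The muscle-type forms Cox6a2, Cox7a1 and Cox8b, known from heart and skeletal muscle, had the largest fold changes of all members over 6 mice and the widest intervals. Without the 2 libraries with muscle markers each lay below Ndufaf6 (0.885). Sequence before the start of Cox7a1 and Cox8b is shown beside that of general forms because the muscle-type genes were all highest in the IOP retina of mouse 3. The 250 bases before the annotated start come from RefSeq (GRCm38.p6), written 5′ to 3′ on the strand of the gene. Capitals mark matches, on either strand, to the letters searched for NRF1 (GCGCATGC), ETS factors (CCGGAAG), YY1 (AAGATGGC) and SP1 (GGGCGG). The letters were settled after results of the search had been seen. Cox6a1 lies at chr5:115348959-115349208 (minus), Cox7a2 at chr9:79759854-79760103 (minus, before an inner start of the gene, which is annotated at chr9:79755241-79771422), Cox7a1 at chr7:30183921-30184170 (plus), Cox8a at chr19:7217617-7217866 (minus) and Cox8b at chr7:140900447-140900696 (minus).
Cox6a1: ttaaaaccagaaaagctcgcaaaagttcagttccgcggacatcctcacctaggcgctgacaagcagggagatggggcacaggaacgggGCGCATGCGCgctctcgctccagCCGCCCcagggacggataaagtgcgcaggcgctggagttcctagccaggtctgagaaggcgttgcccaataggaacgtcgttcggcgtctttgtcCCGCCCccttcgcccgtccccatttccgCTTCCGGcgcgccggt
Cox7a2: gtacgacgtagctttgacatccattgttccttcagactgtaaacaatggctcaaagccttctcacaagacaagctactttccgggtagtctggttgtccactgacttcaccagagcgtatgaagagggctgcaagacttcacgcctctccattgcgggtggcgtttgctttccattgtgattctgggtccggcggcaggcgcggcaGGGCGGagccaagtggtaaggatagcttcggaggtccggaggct
Cox7a1: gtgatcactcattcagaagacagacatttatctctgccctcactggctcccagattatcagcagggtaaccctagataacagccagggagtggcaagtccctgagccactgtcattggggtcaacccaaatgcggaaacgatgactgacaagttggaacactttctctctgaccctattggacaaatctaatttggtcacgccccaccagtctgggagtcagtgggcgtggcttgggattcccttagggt
Cox8a: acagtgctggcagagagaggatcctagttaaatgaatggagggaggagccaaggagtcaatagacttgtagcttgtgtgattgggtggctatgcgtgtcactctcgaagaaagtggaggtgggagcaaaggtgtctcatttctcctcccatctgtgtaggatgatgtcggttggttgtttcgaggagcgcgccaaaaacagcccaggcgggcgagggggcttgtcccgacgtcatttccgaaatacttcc
Cox8b: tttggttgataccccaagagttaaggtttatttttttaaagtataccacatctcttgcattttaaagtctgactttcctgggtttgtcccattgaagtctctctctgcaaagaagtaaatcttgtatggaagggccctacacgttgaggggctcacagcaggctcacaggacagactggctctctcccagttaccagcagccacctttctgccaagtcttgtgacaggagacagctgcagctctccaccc

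The general form Cox6a1 held 2 overlapping NRF1 matches, 1 on each strand, with 1 ETS and 2 SP1 matches, and Cox7a2 held 1 SP1 match. Neither Cox7a1 nor Cox8b held any of these letters, nor did Cox8a in this stretch. Over the wider window of 250 bases before to 50 after the start, 74 members had an entry. The NRF1 letters, named for a factor known to regulate respiratory genes, occurred in 14.9% of these members and in 4.78% of the genes of the table with an entry. The YY1 letters occurred in 14.9% against 4.16%, the ETS letters in 23% against 15.5% and the SP1 letters in 43.2% against 59.6%. A match describes the sequence only.

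Cox6a2 had 258 FPKM in the IOP retina of mouse 3 and 32 FPKM in that of mouse 5, and 0.296 to 2.05 FPKM in the other 10 libraries. Cox8b had 220 and 29.9 FPKM in these libraries and 2.22 to 32.7 FPKM elsewhere. Cox7a1 had 179 and 54.7 FPKM there, 56.3 FPKM in the IOP retina of mouse 6 and 14.2 to 30.1 FPKM elsewhere. The general forms Cox6a1, Cox7a2 and Cox8a stayed within narrower limits. Cox6a1 had 309 to 440 FPKM, Cox7a2 209 to 295 FPKM and Cox8a 342 to 646 FPKM.

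The libraries with high Cox6a2 were those with high muscle markers. The muscle creatine kinase Ckm had 438 FPKM in the IOP retina of mouse 3, 31.3 FPKM in that of mouse 5 and at most 0.859 FPKM elsewhere, and fast troponin Tnnt3 had 741, 84.2 and at most 3.18 FPKM. The log2 fold changes over 6 mice were 2.11 ± 1.19 for Cox6a2, 1.11 ± 0.844 for Cox8b and 1.32 ± 0.42 for Cox7a1, none of which passed (limma adjusted p = 0.265, 0.418 and 0.0644). Without the 2 libraries they were 0.32, 0.12 and 0.76. Cox7a1 was higher in the IOP eye of 6 of 6 mice. The part of muscle RNA in the values of these 3 genes was not tested.

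**Figure D5:**
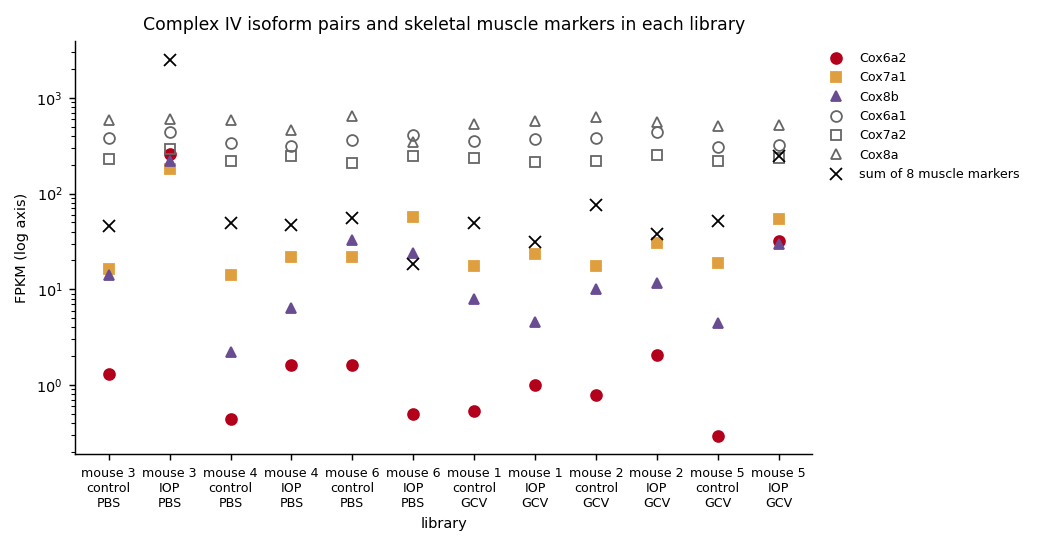
FPKM on a log axis of the muscle-type forms (filled) and the general forms (open) of 3 complex IV subunits and of the sum of 8 muscle markers (crosses) in each of the 12 libraries. Cox6a2, Cox7a1 and Cox8b are highest in the IOP retina of mouse 3, where the muscle markers sum to 2515 FPKM.

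In complex V, 0 of 16 members passed, against 12.2% of all rows, and the median log2 fold change over 6 mice was 0.0272. Atp5b had 897, 807 and 827 FPKM in the controls of mice 3, 4 and 6 and 899, 702 and 639 FPKM in their IOP retinas. With GCV it had 928, 845 and 779 FPKM in the controls and 796, 891 and 721 FPKM in the IOP retinas of mice 1, 2 and 5. The groups overlapped, and the log2 fold change of -0.14 ± 0.142 did not pass (limma adjusted p = 0.556).

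Atp5k, a small membrane subunit, had 254 to 575 FPKM (0.018 ± 0.187). The largest fold change among complex V members with a mean of at least 1 FPKM was that of the stalk subunit Atp5h (0.3 ± 0.342), whose high value in mouse 6 is given above, and the fold change without that library was -0.05. The lowest was that of Atp5sl, at 21.9 to 36.4 FPKM (-0.15 ± 0.101, limma adjusted p = 0.348). Atp5sl carries the prefix by sequence likeness and is not a subunit of the enzyme.

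The comparison of GCV with PBS asked whether removal of p16-expressing cells moved these transcripts. In control retinas, 0 of 90 members passed, as did 0% of all rows, and 0 members had an unadjusted p under 0.05, against 1.59% of all rows. In IOP-treated retinas, 0 members and 0% of all rows passed, and 4 members (4.44%, against 4.18% of all rows) had an unadjusted p under 0.05, all lower with GCV, as were 1.59% of all rows. They were Uqcrb (-1.12 ± 0.478), Cox5b (-0.75 ± 0.266), Cox7b (-0.33 ± 0.15) and Atp5l (-0.91 ± 0.236), each with a limma adjusted p of 0.819. The first rests on the library of mouse 6 described above and the last on fewer than 6 fragments per library. Without the 2 libraries with muscle markers these counts turned. The IOP retinas left were those of mice 4 and 6 without GCV and of mice 1 and 2 with GCV. That of mouse 4 had the lowest summed level of the members and that of mouse 6 the lowest depth. Then 23 members (25.6%, against 12.2% of all rows) had an unadjusted p under 0.05, 21 higher with GCV and 2 lower, where 7.34% of all rows were higher and 4.91% lower. None passed, and the median of the members was 0.155 instead of -0.0152.

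The IOP response with GCV and that without were compared by their interaction, for which 0 members and 0% of all rows passed. No member had an unadjusted p under 0.05, against 1.93% of all rows, and the median difference of the members was -0.0255. Without the 2 libraries with muscle markers, which left 2 IOP retinas in each group, this median was 0.149. Then 16 members (17.8%, against 7.97% of all rows) had an unadjusted p under 0.05, all of them higher, as were 5.17% of all rows, with 0 members passing. The 2 IOP responses were thus not shown to differ, and medians of either sign were obtained.

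Other genes of energy metabolism were taken from lists. In the citric acid cycle, 0 of 19 genes passed over 6 mice, with a median log2 fold change of 0.00049. In glycolysis and lactate handling, 6 of 24 passed (2 higher and 4 lower), where 12.2% of all rows did. With the mouse as a block 3 of them passed (Hk1, Eno2 and Ldhb), where 7.3% of all rows did. Hexokinase Hk1 rose from 326 ± 28.5 to 532 ± 124 FPKM (SD, n = 6; log2 fold change 0.68 ± 0.154, limma adjusted p = 0.0234). The neuronal enolase Eno2 fell from 309 ± 42.4 to 197 ± 52.8 FPKM and the lactate dehydrogenase subunit Ldhb from 118 ± 17.5 to 75.6 ± 15.5 FPKM. The median of the list was -0.23, against 0.00892 for all rows.

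Markers of other cells moved alongside, where 12.2% of all rows passed, or 7.3% with the mouse as a block. In these counts a gene that rose or fell is 1 that passed the test in that direction. By sign alone, 12 of 12 retinal ganglion cell and 8 of 8 amacrine and horizontal cell markers were lower over 6 mice. So were 7 of 8 cone and 6 of 9 pigment epithelium markers. Microglia (10 of 10), infiltrating leukocyte (9 of 9) and lens markers (11 of 11) were higher. Of the retinal ganglion cell markers 11 of 12 fell (median of -1.23), 4 of them also with the block. Their summed level was 974 to 1982 FPKM in the controls and 243 to 1075 FPKM in the IOP retinas. Microglia markers rose in 8 of 10 (median of 1.83; 7 with the block), with 71.9 to 115 FPKM in the controls and 277 to 586 FPKM in the IOP retinas. Of the markers of infiltrating leukocytes 7 of 9 rose (median of 2.73; 7 with the block), and they summed to 9.65 to 47.6 FPKM in the controls and 176 to 2512 FPKM in the IOP retinas. Of the amacrine and horizontal cell markers 6 of 8 fell (median of -0.939; 6 with the block), with sums of 579 to 1037 FPKM in the controls and 122 to 485 FPKM after IOP elevation. Lens markers rose in 6 of 11 (median of 3.09; 7 with the block), and their sums are given above. Of the Mueller glia markers 3 of 8 passed, 1 higher and 2 lower, and 1 with the block. None of the 8 bipolar cell markers passed (median of -0.645), with 8 of 8 below 0 and 5 at an unadjusted p under 0.05, against 30.3% of all rows. Of the cone markers 1 of 8 fell (Arr3, also with the block) and of the pigment epithelium markers 1 of 9 (Rlbp1, not with the block). Rlbp1 is also in the Mueller glia list, so the same call is counted in both lists. None of the 10 pericyte and endothelial, 7 blood and 8 muscle markers passed. None of the 12 rod markers passed (median of -0.227, smallest limma adjusted p of 0.0776). The part of these cells in the values of glycolytic or oxidative phosphorylation genes was not tested.

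Of 20 regulators of mitochondrial content with values, 5 had an unadjusted p under 0.05, against 30.3% of all rows, and 2 passed, against 12.2%. The coactivator Ppargc1b fell from 13.7 ± 1.97 to 9.63 ± 1.85 FPKM (SD, n = 6; -0.48 ± 0.121, limma adjusted p = 0.0343), and the transcription factor Yy1 rose from 28.9 ± 1.81 to 39.2 ± 7.48 FPKM (0.41 ± 0.109, limma adjusted p = 0.0381, and 0.0718 with the mouse as a block). The coactivator Ppargc1a had 15.3 ± 0.724 and 13.4 ± 4.36 FPKM, the factor Nrf1 16.3 ± 1.33 and 16.4 ± 3.29 FPKM, and the mitochondrial DNA-binding protein Tfam 8.13 ± 1.09 and 8.75 ± 0.301 FPKM in control and IOP retinas, and these 3 did not pass. Among carriers and uncouplers, 1 of 12 passed. This was the uncoupling protein Ucp2, which rose from 26.8 ± 14.7 to 82.4 ± 45.2 FPKM (1.55 ± 0.392, limma adjusted p = 0.0339).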

How the data were processed

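Stranded, poly(A)-selected RNA libraries from 12 retinas were sequenced by the authors as pairs of 50-base reads. Their methods name HOMER counting on exons of RefSeq genes, and the submitters' processing notes list TopHat2, Bowtie2, Cufflinks, Cuffdiff and mm10, without versions. The deposited table holds 1 column per retina in FPKM, a unit inferred from the values because low values times transcript length fell on steps of 1 fragment (79.6% to 85.2% of values within 0.15 of a whole fragment). These steps gave the depth, which is an estimate, so the fragment numbers are too. No column was left out.

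Groups came from the sample titles. The values were tested on the log2(FPKM + 1) scale, which understates changes of low genes, with limma 3.58.1 in R 4.3.3 (variance trend, 4 group means sharing 1 spread, Benjamini-Hochberg adjustment over 18509 rows). The threshold was an adjusted p under 0.05. On simulated data for IOP against control over 6 mice, with 200 of 18509 genes changed 2 units on the log2 scale, 187 were recovered with 9 false calls. The median absolute log2 fold change of the members was 0.134. Recovery of changes of that size was not simulated, so the 187 say nothing about them. The alternatives tried were adding 0.1 in place of 1, keeping rows with 1 FPKM or more in 3 libraries, median-ratio scaling, quantile normalization, the mouse as a block, leaving out each library, and leaving out both libraries with muscle markers, which was added after seeing the data. Both retinas with 1 mouse number come from 1 animal, so the numbers pair the samples. The correlations of the paired deviations were 0.207, 0.388, 0.0998, -0.117, 0.132 and 0.166 in mice 3, 4, 6, 1, 2 and 5.

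The genes named were, per complex, the 2 most abundant, the largest and smallest fold change at a mean of at least 1 FPKM, every member that passed, complex II and the tissue-restricted paralogs. Others were named after their values were seen. The members and lists were chosen with earlier results of these data known. For the promoters, a longer form of the NRF1 letters and letters for MEF2 were searched first. After their results were seen, the NRF1 form was shortened and MEF2 was dropped, and those results are not reported here. Coordinates and promoters are from RefSeq GRCm38.p6, and shared windows from GENCODE transcripts.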

Additional observations from a re-analysis of the deposited data

Results flagged for a closer look

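Of 35 eye-pair series tested, 3 held a mouse far from the other 5. Chance alone flags about 1 in 20. Some series were of members named for extreme fold changes in these same data, so the 3 cannot be set against that rate. The eye-pair difference of Uqcrb, on the log2(FPKM + 1) scale, was 2.66 in mouse 6, compared with -0.644 to 0.29 in the other 5 mice. That of the assembly factor Ndufaf2 was 1.58 in mouse 6, compared with -0.3 to 0.319. That of the muscle-type Cox7a1 was 3.37 in mouse 3, compared with 0.411 to 1.48. The IOP library of mouse 6 had the lowest depth (about 3990000 fragments) and that of mouse 3 the highest muscle markers (2515 FPKM), and the part of either in these values was not tested.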

How the results depend on the processing

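The count of members that passed over 6 mice, 1 as reported, was 2 with the filter on low values (19.7% of all rows passed) and 4 with quantile normalization (Ndufa10, Ndufaf6, Ndufv3 and Sdha; 16% of all rows), against 12.2% of all rows as reported, and leaving out single libraries gave 1 to 11. Leaving out the IOP library of mouse 4 gave the 11. The IOP libraries of mice 3 and 6 and the control library of mouse 2 each gave 2, where 6.97%, 10.2% and 4.98% of all rows passed. Leaving out single libraries gave 0 to 11 without GCV and 0 to 1 with GCV, where the highest value again came without the IOP library of mouse 4. Without both libraries with muscle markers, which left 2 IOP retinas in each group, the count without GCV was 1 (Ndufa10), and the median of the interaction was 0.149 instead of -0.0255. The median without GCV turned from 0.109 to -0.0296 there, also without the IOP library of mouse 3 alone, and that of GCV against PBS in IOP retinas from -0.0152 to 0.155. Quantile normalization moved the eye-pair medians to 0.0194 in mouse 2, -0.0624 in mouse 5 and -0.248 in mouse 6. The causes of these moves were not tested. With the mouse as a block, 1 member passed over 6 mice, 0 without GCV, 0 with GCV and 0 in the interaction, so the pairing changed no call among the members, whereas the rows that passed over 6 mice went from 2258 to 1351. No direction of an adjusted call was turned by any alternative run, while the signs of these medians were. Of the alternatives for the log2 fold changes of the 28 named members, 493 stayed on the same side of the threshold, 10 passed where the reported value did not, and 1 no longer passed (Ndufaf6 without both libraries with muscle markers). Members under 1 FPKM rest on few fragments.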

Other observations

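The other assembly genes of the respiratory chain gave 1 call. For complex IV, 0 of 23 passed over 6 mice (median of 0.0778), for complex II 0 of 4 (0.0852), and for the assembly and inhibition of ATP synthase 0 of 5 (-0.0365). For complex III, 1 of 6 passed, Uqcc1, which is needed to make cytochrome b and fell from 27.4 ± 1.63 to 23.9 ± 0.87 FPKM (SD, n = 6; -0.19 ± 0.0503, limma adjusted p = 0.0393, and 0.0913 with the mouse as a block). Of 18 genes of mitochondrial quality control, 2 passed, where 12.2% of all rows did. The fusion protein Mfn2 fell from 45.5 ± 3.16 to 35.8 ± 2.75 FPKM (-0.34 ± 0.071, limma adjusted p = 0.0173) and the protease subunit Afg3l2 rose from 19.8 ± 1.74 to 27.9 ± 5.15 FPKM (0.46 ± 0.112, limma adjusted p = 0.0306). Cytochrome c (Cycs) had 2.1 ± 0.32 FPKM in the controls and 1.89 ± 0.475 FPKM after IOP elevation.

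The eye-pair differences of the members spread more in short transcripts. The median SD over the 6 pairs was 0.42 for the 31 members under 600 bases, 0.29 for the 34 of 600 to 1000 bases and 0.275 for the 25 over 1000 bases, as a description without a test.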
